A study of Mus musculus with 4 samples.

Results

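Hand2, Twist1 and Twist2 encode transcription factors of the basic helix-loop-helix (bHLH) class, and the accessible chromatin around these 3 genes was described in the developing mouse limb. The members were chosen by name. Their regions are the peaks of 2 deposited lists that overlap the interval from 250 kb before to 250 kb after each start site in the mouse genome build mm10. This gave 119 of 99356 regions at E10.5 and 40 of 37413 at E11.5 (E10.5 and E11.5 are embryonic days). Accessibility was measured by ATAC-seq, in which the transposase Tn5 inserts sequencing adaptors into open DNA. The 4 samples were fore- and hindlimb cells of wild-type embryos, 2 replicates at each of 2 stages, with no treatment or mutant allele named in the labels. The titles give the stages as E105 and E115, and the protocol writes the earlier one as E10. Forelimb and hindlimb were not kept apart and no sort by position or cell type is named, so fewer cells with an open region and less opening per cell cannot be told apart. By its name, the list of each stage joins both replicates, so there is no spread between replicates, the depth is unknown, and no difference between stages was tested.

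bHLH factors bind DNA as dimers at E-boxes, short sites of the form CANNTG. HAND2 and the TWIST proteins pair with the widely made E proteins and also with each other, and the choice of partner is known to shape limb patterning. Hand2 is expressed in the posterior limb bud mesenchyme, where it acts upstream of Shh and in mutual antagonism with Gli3. Twist1 is expressed through the limb mesenchyme and is required for limb bud outgrowth, and its loss in one gene copy gives skull and digit defects. Twist2, also called Dermo1, is a close relative of Twist1 that is known from dermis and other mesenchyme.

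Hand2 occupies chr8:57320983-57324517, Twist1 chr12:33957671-33959831 and Twist2 chr1:91801461-91848034, all transcribed from the plus strand. The 250 bases before each start site are shown because the summit of the E11.5 promoter region fell inside them for all 3 genes. They are RefSeq sequences of GRCm38.p6, which has the mm10 coordinates, read 5′ to 3′ along the gene: chr8:57320733-57320982 for Hand2, chr12:33957421-33957670 for Twist1 and chr1:91801211-91801460 for Twist2, each on the plus strand. Capitals mark CCAAT or its complement ATTGG, the letters of the CCAAT box found in many promoters.
Hand2: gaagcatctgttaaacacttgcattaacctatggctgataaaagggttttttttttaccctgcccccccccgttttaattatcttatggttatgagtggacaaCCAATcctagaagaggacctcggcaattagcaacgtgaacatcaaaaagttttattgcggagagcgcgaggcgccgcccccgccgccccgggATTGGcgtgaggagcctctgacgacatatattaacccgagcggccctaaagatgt
Twist1: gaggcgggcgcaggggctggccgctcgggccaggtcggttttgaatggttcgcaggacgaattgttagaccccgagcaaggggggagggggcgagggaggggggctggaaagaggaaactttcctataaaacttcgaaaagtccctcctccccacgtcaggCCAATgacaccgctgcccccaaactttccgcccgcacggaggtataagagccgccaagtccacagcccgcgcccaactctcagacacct
Twist2: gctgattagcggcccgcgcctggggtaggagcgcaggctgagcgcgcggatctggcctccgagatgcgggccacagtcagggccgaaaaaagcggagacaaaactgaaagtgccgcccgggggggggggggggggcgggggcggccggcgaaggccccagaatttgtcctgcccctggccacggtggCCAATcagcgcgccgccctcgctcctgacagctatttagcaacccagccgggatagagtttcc

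Each of the 3 sequences holds a CCAAT box on one strand or the other, as do 33.8% of the 32851 promoters of the same length in the table. Counting the base just before the start site as -1, it lies at -147 to -143 and -55 to -51 in Hand2, at -89 to -85 in Twist1 and at -63 to -59 in Twist2. The E11.5 promoter summit lay at -32 for Hand2, at -56 for Twist1 and at -60 for Twist2. An E-box (CANNTG) occurs in Hand2 only, as CATCTG at -246 to -241 and CACTTG at -235 to -230, and 66.2% of all promoters hold one. TATAA occurs in Twist1 only, at -126 to -122 and -47 to -43, and 22.8% of promoters hold it on either strand. The GC box GGGCGG, read on both strands, is in all 3 and in 32.7% of promoters. The homeodomain letters TAATTA stand in Hand2 alone, at -175 to -170, against 4.84% of promoters. Over the 300 bases from 250 before to 50 after the start, G and C made up 66.0% in Twist1 and 64.7% in Twist2, and 50.3% in Hand2, where the median of 21263 coding promoters was 56.3%. These matches describe the letters of short windows, were picked with the sequences in view, and say nothing of which factor binds.

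All 3 members had a promoter region, defined as a region within 1 kb of the start site, in both lists. Over all 21536 protein-coding genes with a known strand, 66.3% had one at E10.5, 59.9% at E11.5 and 59.5% in both, so presence alone does not set the members apart. In the list of E10.5 only, 6.71% had one. Taking every listed start site of a gene gave 69.4% for E10.5 and 63.5% for E11.5. The values given here are the authors' signal per region, which behaves as a total over the region, and the rank is the region's place by signal in its own list. Distances run from the start site to the region's summit, with a minus sign upstream.

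The Hand2 promoter region at E10.5 ran from 57319176 to 57322960 on chromosome 8, over the start of Hand2 and that of the divergent noncoding gene Hand2os1, which starts at -0.124 kb from it on the other strand. It had a signal of 10154 (rank 1803). At E11.5 the region from 57319662 to 57322548 had a signal of 4959 (rank 2881) and lay wholly within the earlier one. The summits lay at -4 bp (E10.5) and -32 bp (E11.5).

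The Twist1 promoter region at E10.5 spanned 33956553 to 33959174 on chromosome 12, with a signal of 9509 (rank 2226). At E11.5 it began at the same base, 33956553, and ended at 33958914, with a signal of 6253 (rank 1487). Of the 3 members, Twist1 thus had the lowest promoter signal in the E10.5 list and the highest in the E11.5 list. The 2 summits were 8 bp apart.

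The Twist2 promoter region at E10.5, at 91799363 to 91803159 on chromosome 1, was the strongest region of the 3 windows, with a signal of 14950 (rank 446). At E11.5 it was met by 2 regions. One, at 91800235 to 91802330, had a signal of 3103 (rank 6763), and the other, at 91802445 to 91802985, had 278 (rank 31499) and began 984 bp after the start site, just inside the 1 kb limit. The nearest region just outside it was the Twist1 region of E10.5 whose end lay at -1305 bp, with a signal of 1674. The Twist2 summit stood at -1080 bp in the earlier list and at -60 bp in the later one.

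Set among the strongest promoter regions of all coding genes that had one, Hand2 stood at percentile 90.5 in the E10.5 list and 77.6 in the E11.5 list. Twist1 stood at 88.3 in each list. Twist2 stood at 97.6 at E10.5 and at 50.7 at E11.5, near the median of its list. Ranks in lists of different length do not measure a change. Ranking all regions by signal per bp in place of signal moved Twist2 at E11.5 from percentile 81.9 to 50.3 of the list, and Hand2 at E11.5 from 92.3 to 60.4.

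**Figure D1:**
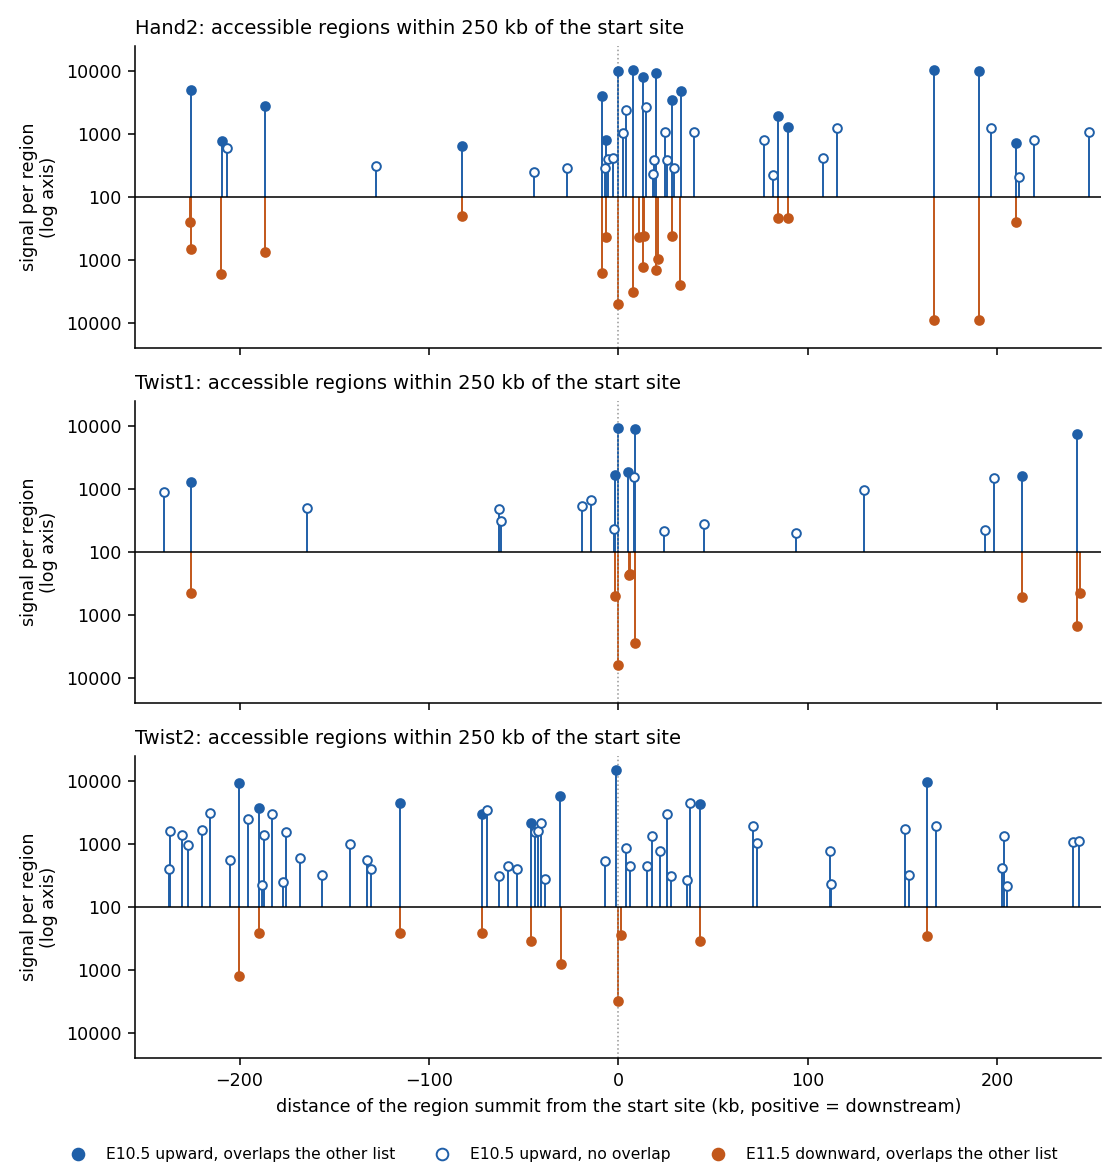
Regions within 250 kb of the Hand2, Twist1 and Twist2 start sites, with the summit's distance in kb on the horizontal axis and the authors' signal per region on a log axis, E10.5 upward and E11.5 downward. Filled points overlap a region of the other list, open points do not. All 40 E11.5 points are filled, and the Twist2 panel has 48 open points against 9 filled ones at E10.5.

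Around Hand2 there were 41 regions in the E10.5 list and 21 in the E11.5 list. Within 50 kb of the start site lay 22 E10.5 and 11 E11.5 regions. For Twist1 these were 10 of 21 and 5 of 9, and for Twist2 18 of 57 and 5 of 10. Within 100 kb Hand2 had 27 and 14 regions, where the medians over all coding genes were 10 and 5. Between the Hand2 start site and the end of Hdnr, a noncoding gene just downstream, the E10.5 regions covered 23.6 kb of 33.6 kb (70.1%). The E11.5 regions covered 9.66 kb of it (28.7%). Coverage of like stretches elsewhere in the lists is not given here.

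The strongest distal region that was no promoter of another coding gene had its summit 7.73 kb downstream of the Hand2 start, between Hand2 and Hdnr. It ran from 57327258 to 57330814 at E10.5 with a signal of 10490 (rank 1627), above that of the promoter. At E11.5 it ran from 57327832 to 57329498 with a signal of 3210 (rank 6503), and the summits were 5 bp apart. In the E10.5 list its signal was 1.03 times that of the promoter, and in the E11.5 list 0.647 times. Across the lists, shared distal regions had a median of 0.283 times their E10.5 signal at E11.5, and shared coding promoter regions 0.605 times. A lower distal to promoter ratio in the E11.5 list is therefore not read as particular to this site.

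Next came 2 wide E10.5 regions over Hdnr that E11.5 regions split into pieces. The one at 57340738 to 57344310, 20.1 kb downstream, had a signal of 9244 (rank 2428), and 2 E11.5 regions of 1457 and 957 lay inside it. The one at 57331502 to 57334664, over the start of Hdnr and part of the noncoding gene Gm34030, had 7988 (rank 3685), and 3 E11.5 regions of 430, 1289 and 409 lay inside it. Near the end of Hdnr, 32.9 kb downstream, a narrow region of 968 bp had a signal of 4868 in the E10.5 list and 2451 in the E11.5 list, where it was 913 bp wide. It was the second strongest E11.5 region of the window outside promoters.

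Upstream, a region inside Hand2os1 at 57311760 to 57313263 (-8.46 kb) had a signal of 4046 in the E10.5 list and 1618 in the E11.5 list, with summits 4 bp apart. Far upstream, at -226 kb, the region at 57094097 to 57095715 had 4970 at E10.5 and was met by E11.5 regions of 246 and 657. A region at -209 kb went the other way. It had 766 at E10.5 (57111219 to 57112029, rank 52570) and 1685 at E11.5 (57110734 to 57111621, rank 11680), and it was singled out after its values were seen. These 2 regions overlapped by 403 bp only, with summits 530 bp apart, and the E11.5 summit lay before the start of the E10.5 region. Whether they are 1 site was not tested. The E10.5 region was the one of the 33 shared E10.5 regions of the 3 windows, promoters included, whose E11.5 signal was the larger. Across the lists 7.23% of shared distal regions and 10.9% of shared coding promoter regions had a larger E11.5 signal.

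The strongest E10.5 region of the Hand2 window without an E11.5 overlap lay at 57334784 to 57336969 over Hdnr, with a signal of 2737. None of the E11.5 regions lacked an E10.5 overlap. The window also holds the promoters of Sap30, a subunit of a histone deacetylase complex, and Hmgb2, a chromatin protein of dividing cells. The Sap30 region had a signal of 10528 in the E10.5 list and 8814 in the E11.5 list, and the Hmgb2 region 9941 and 8889. The Hand2 promoter signal was 0.964 times that of Sap30 and 1.02 times that of Hmgb2 in the E10.5 list, and 0.563 and 0.558 times in the E11.5 list. These 2 reference genes were chosen after their values were seen. Their own E11.5 to E10.5 signal ratios, 0.837 and 0.894, lay above the upper quartile of shared coding promoter regions, 0.807. That of Hand2, 0.488, lay between the quartiles. The lower values at E11.5 are thus not read as a change at Hand2. Scrg1, the coding gene 135 kb downstream of Hand2, had no region in its body or promoter in either list.

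**Figure D2:**
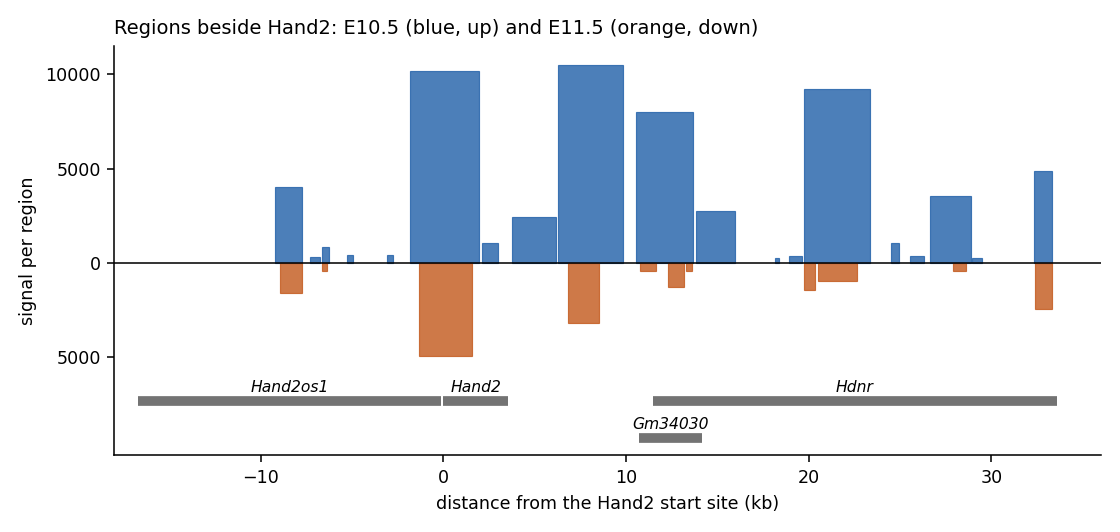
Regions from 18 kb before to 36 kb after the Hand2 start site, drawn to scale as boxes as wide as the region and as high as its signal, E10.5 upward in blue and E11.5 downward in orange, with gene extents as grey bars. The wide E10.5 boxes at 7.73, 13.0 and 20.1 kb stand over narrower E11.5 boxes.

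Twist1 had fewer regions, 21 in the E10.5 list and 9 in the E11.5 list, and 2 distal ones came near its promoter in signal at E10.5. The region 8.95 kb downstream, between Twist1 and Hdac9 at 33966404 to 33969291, had a signal of 9005 at E10.5 (rank 2633), 0.947 times that of the promoter. At E11.5, at 33966416 to 33968969, it had 2824 (rank 7578), 0.452 times that of the promoter. As for Hand2, the lower ratio is not read as particular to this site, given the medians of the lists. The other lay 242 kb downstream within Hdac9, a histone deacetylase gene, at 34199869 to 34201901, with 7501 at E10.5 (rank 4312). There 2 E11.5 regions had signals of 1469 and 442.

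The next 3 distal regions by E10.5 signal were well below these. They lay 4.94 kb downstream (1874), at -1.66 kb (1674) and 213 kb downstream in Hdac9 (1594). At E11.5 the first was met by regions of 230 and 227, the second by one of 490 and the third by one of 519. A region at -226 kb had 1313 in the E10.5 list and 441 in the E11.5 list. The strongest E10.5 region without overlap lay 8.27 kb downstream at 33965599 to 33966273, with a signal of 1535. Ferd3l, a bHLH gene of the nervous system whose start lies at -29.2 kb from that of Twist1, had no region in its body or within 1 kb of its start in either list.

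Twist2 had the most E10.5 regions of the 3, 57, but 10 at E11.5. At E10.5, 33 of its distal regions lay upstream and 23 downstream. The Twist2 gene body was met by 11 regions at E10.5, the promoter region among them, and by 3 at E11.5. The 2 strongest distal regions were nearly level at E10.5. One lay 163 kb downstream within Hdac4, a histone deacetylase gene, at 91962269 to 91965726, with a signal of 9812 (rank 1995). The other lay at -201 kb between genes, at 91600062 to 91602914, with 9173 (rank 2485). At E11.5 the Hdac4 site held 1 region of 285 (91964616 to 91965051, rank 31045) and the upstream site 1 of 1267 (91600601 to 91601540, rank 13896). The summits of the lists were 12 and 17 bp apart at these sites.

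The third distal region, at -31.0 kb (91769792 to 91771612), had a signal of 5830 in the E10.5 list and 813 in the E11.5 list. The fourth, at -115.5 kb, had 4519 and 258. The fifth, 38.0 kb downstream in the Twist2 gene at 91838304 to 91840075, had 4516 at E10.5 and no E11.5 overlap, and it was the strongest region of the 3 windows in 1 list only. Its neighbour at 43.3 kb had 4411 and 347, and the region at -46.1 kb 2179 and 348. Outside the promoter, every E11.5 region of this window had a signal of at most 1267, and 2 of 8 stood above the median of the E11.5 list.

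At the window limits, regions just outside included the strong promoter of Asb1 near Twist2, with a signal of 7055 in the E10.5 list and 5213 in the E11.5 list, and a region 258 kb downstream of Twist1 with 4541 and 1119. Just inside, on the same sides, stood an E10.5 region of 402 upstream of Twist2 and the Hdac9 region of 7501.

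Of the E11.5 regions, 40 of 40 overlapped an E10.5 region by at least 1 bp (95% Wilson interval from 91.2%, counting error only), against 91.8% of the whole list. By class the list stood at 98.8% within 1 kb of coding start sites, where the members had 4 of 4, and at 88.2% farther away. Of the 40, 35 lay wholly inside the E10.5 region, for which the whole list's share is not given here. In the other direction 17 of 41 E10.5 regions of Hand2 overlapped (41.5%, 27.8 to 56.6%), 7 of 21 of Twist1 (33.3%, 17.2 to 54.6%) and 9 of 57 of Twist2 (15.8%, 8.54 to 27.4%). The whole E10.5 list stood at 32.3%, within the interval of Hand2 and of Twist1 and above that of Twist2. Over regions more than 1 kb from coding start sites the list stood at 23.5%, and the distal regions of Twist2 at 14.3% (7.42 to 25.7%), whose interval includes it. Those of Twist1 stood at 30.0% (14.5 to 51.9%), which also includes it, and those of Hand2 at 40.0% (26.3 to 55.4%). The Hand2 interval lies above 23.5%, but it counts the promoters of Sap30 and Hmgb2, which are both shared. Within 1 kb the list stood at 86.0%, and the members' own promoter regions at 3 of 3. When each region had to cover at least 50% of the other, 15 regions in each list still overlapped. The whole lists' share under that rule is not given here, so the count is not read as high or low. Regions of 1 window are neighbours and share their libraries, so these intervals are too narrow.

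Sharing rises with signal, so each E10.5 region was also set against the share of its own signal decile in the list. Adding these shares gave 15.0 regions for Hand2, where 17 overlapped, and 6.18 for Twist1, where 7 did. For Twist2 it gave 20.2, where 9 overlapped, and 18.3 when promoter and distal shares were taken apart. In the 3 strongest deciles Twist2 had 19 regions with 9 shared, against 14.4 by the decile shares. Hand2 had 12 of 14 shared there, against 11.6. All 14 regions of the 3 windows in the top decile were shared, where the whole list's share in that decile was 96.7%.

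**Figure D3:**
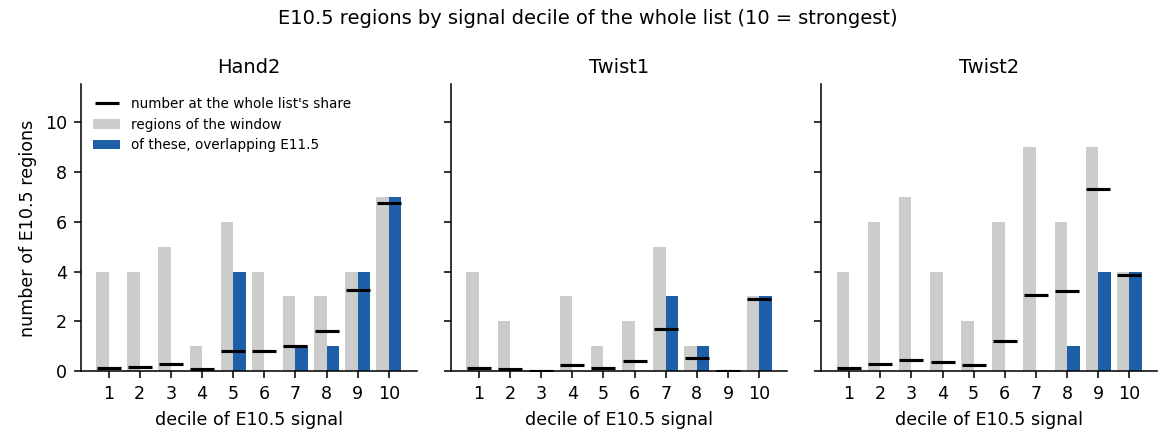
Number of E10.5 regions per decile of E10.5 signal (1 weakest, 10 strongest) in each window in grey, the number overlapping an E11.5 region in blue, and the number that the whole list's share for that decile would give as a black dash. In Twist2 the blue bars stay below the dashes in deciles 1 to 9.

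The values of overlapping regions were also put side by side as the summed E11.5 signal over the E10.5 signal. The lists are not normalised to each other as far as is stated, so a ratio is read only against the same ratio elsewhere in the lists. Over 12055 shared coding promoter regions the median was 0.605, with the middle of the values between 0.426 and 0.807 (quartiles). The ratio was 0.488 for the Hand2 promoter, 0.658 for Twist1 and 0.226 for Twist2, the last at percentile 7.01. Over 20032 shared distal regions the median was 0.283. The 14 such regions of Hand2 had a median of 0.287 and the 6 of Twist1 one of 0.303. The 8 of Twist2 had a median of 0.0814 and ranged from 0.0291 to 0.160, all below the lower quartile of the lists, 0.169. Restricted to the 3 strongest E10.5 deciles, the median of the lists was 0.215, and all 8 regions of Twist2 were below it. These are descriptions of 1 list per stage, with no replicate check.

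Summits were close in overlapping pairs. The median distance was 28 bp over 21 pairs of Hand2, 61 bp over 9 of Twist1 and 53 bp over 10 of Twist2, against 27 bp over 34604 pairs of the lists. The largest distance was 2268 bp, at the Twist2 promoter, where a wide E10.5 region covers 2 E11.5 regions.

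Against the windows of all 21536 coding genes, Hand2 with 41 and 21 regions stood at percentiles 74.7 (E10.5) and 82.2 (E11.5), and Twist1 with 21 and 9 at 39.7 and 39.9. Twist2 stood at 91.9 in the E10.5 list and 44.9 in the E11.5 list. The medians were 26 and 11 regions. Among 13626 windows with at least 20 E10.5 regions, the shared percentage of Twist2 stood at percentile 4.48, that of Hand2 at 58.8 and that of Twist1 at 39.3. Windows of neighbouring genes count some of the same regions.

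**Figure D4:**
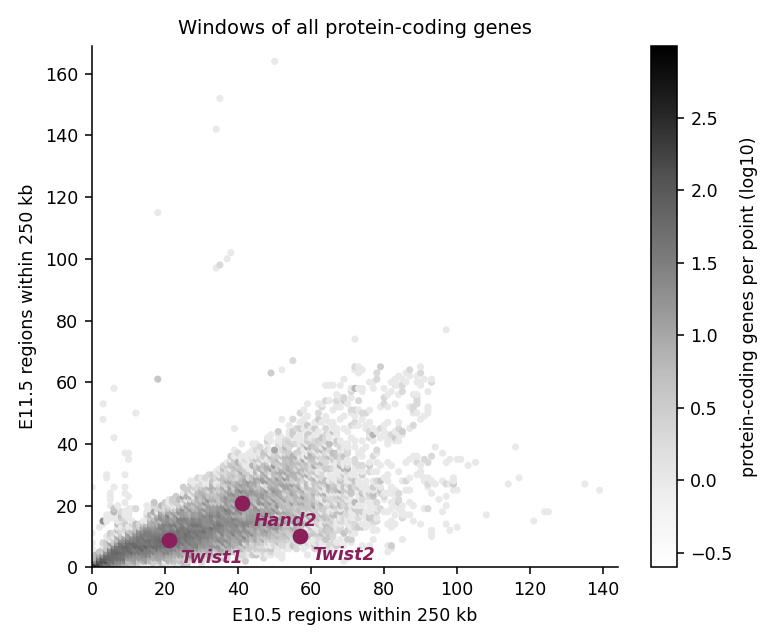
E10.5 regions (horizontal) against E11.5 regions (vertical) within 250 kb of each protein-coding start site, with grey shade for the number of genes per point on a log10 scale. Hand2 (41 and 21) and Twist1 (21 and 9) sit within the main cloud, and Twist2 (57 and 10) toward its lower side.

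Likeness of pattern was measured as the distance over 4 percentiles, the strongest promoter signal and the number of regions in the window, each in both lists. Among the genes nearest to Hand2 were Mphosph9 (distance 2.47) and Gtpbp1 (2.55), and nearest to Twist1 were Kpna4 (1.71), Lbr (2.49) and Creb1 (2.59). For Twist2 the nearest were Vav2 (6.12), Abl1 (6.53) and Ksr1 (6.75). Within a distance of 5 there were 38 genes for Hand2, 30 for Twist1 and 0 of 14260 for Twist2, so Twist2 had no close match on these measures. With 2 lists the measure is coarse.

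Partners and inhibitors of the members had promoter regions throughout. The E proteins Tcf3, Tcf4 and Tcf12, dimer partners of HAND2 and TWIST, had one in 3 of 3 cases in each list. Their median percentile by signal was 89.3 in the E10.5 list and 82.8 in the E11.5 list, against 89.4 and 81.6 over all coding genes with a promoter region. The genes Id1 to Id4, whose proteins bind E proteins and keep them from DNA, had one in 4 of 4 cases. Id2 had the highest signal of the 4 at E10.5, 29529, and the lowest at E11.5, 2902. The percentiles of the 3 members, 98.2, 97.8 and 99.6 at E10.5, were above those of the 3 E proteins (86.1 to 95.5). At E11.5 Hand2 and Twist1 were again above all 3 E proteins (77.6 to 88.8), while Twist2 at 81.9 was below Tcf12 and Tcf3. Hand2 and Twist1 had a lower E10.5 promoter signal than each of the 4 ID genes, of which Id4 was lowest with 10246, and Twist2 exceeded 3 of them. At E11.5 the signal of Twist1 exceeded all 4 ID genes, of which Id1 was highest with 5601, that of Hand2 exceeded 3, and that of Twist2 exceeded Id2 and Id3.

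Among 8 relatives of the Hand and Twist families, 6 had a promoter region in the E10.5 list and 4 in the E11.5 list, near the shares of all coding genes (66.3% and 59.9%). Hand1, the sister gene of Hand2, had one at E10.5 only (signal 2061), as did Tcf21 (260). Tcf23 and Ferd3l had none in either list. Scx, a tendon factor, had the highest signal of them at E10.5, 37238, and the lowest of the 4 at E11.5, 1170. Of 26 bHLH genes of nerve, muscle and blood, 25 had a region in the E10.5 list and 19 in the E11.5 list. Both counts lie above the shares of all coding genes (66.3% and 59.9%). The median percentiles of their regions, 74.0 and 55.5, were below those of coding promoters at large. The 6 with a region at E10.5 only were Myog, Nhlh1, Olig3, Neurog3, Myf5 and Neurod2, with signals from 212 to 2065. Over all coding genes, 6.71% had a promoter region in the earlier list only. Nhlh2 had none in either list. The 3 members thus had stronger promoter regions at E10.5 than every one of these 26 genes, the highest of which was Ascl2 with 7038. At E11.5 this held for Hand2 and Twist1, while Bhlhe22 (3278) and Atoh1 (3137) exceeded Twist2 (3103).

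The limb genes listed for their known ties to Hand2 or Twist1 numbered 16. All had an E10.5 promoter region and 15 an E11.5 one, against 66.3% and 59.9% of all coding genes. The exception was Hoxd11 (signal 23028 at E10.5), which had an E11.5 region only at a start site other than its outer one. Gli3, the antagonist of Hand2, had signals of 15970 and 10604. Shh, downstream of Hand2, had the weakest promoter regions of the list, 649 in the E10.5 list and 228 in the E11.5 list. Grem1, the BMP antagonist, had 8612 and 4790. The median percentile was 98.4 in the E10.5 list, above the 89.4 of all coding genes with a promoter region. In the E11.5 list it was 77.2, below their 81.6.

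**Figure D5:**
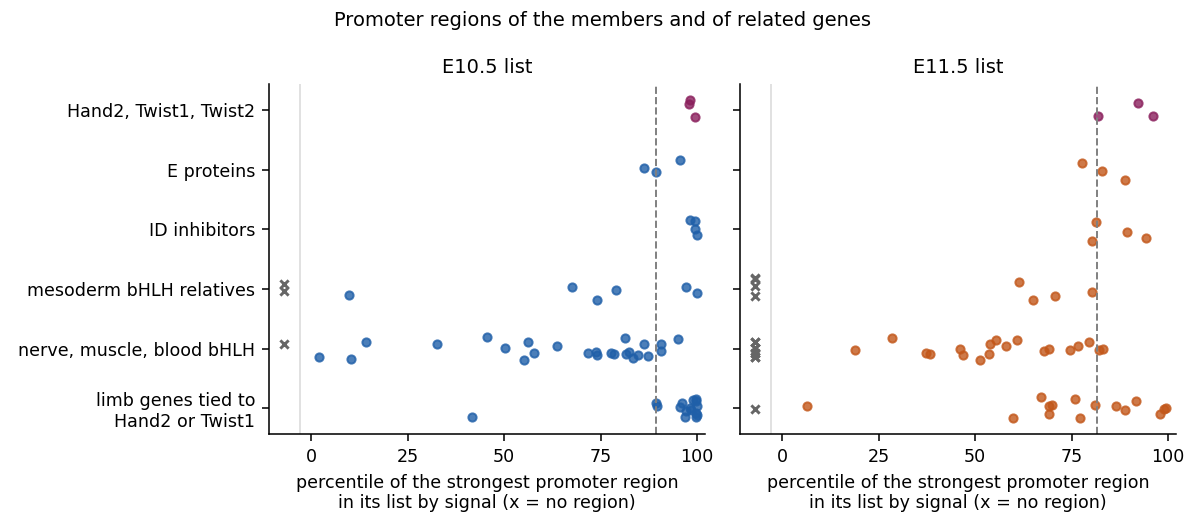
Percentile by signal of the strongest promoter region per gene in the E10.5 list (left) and the E11.5 list (right), 1 point per gene, with crosses for genes without a region and a dashed line at the median of all coding genes that had one (89.4 and 81.6). The 3 members lie at 97.8 or above in the E10.5 list and between 81.9 and 96.0 in the E11.5 list.

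The limb label was checked against markers of cell types at promoters. Of 10 limb mesenchyme genes, 10 had a promoter region in the E10.5 list and 8 in the E11.5 list, where 66.3% and 59.9% of all coding genes had one. Tbx5 and Pitx1 had one at E10.5 only. The median percentile by signal of this set was 94.0 in the E10.5 list and 54.4 in the E11.5 list, against 89.4 and 81.6 over all coding genes with a region. In the E11.5 list the medians of blood, endothelium and nerve, with 2, 1 and 1 genes, were higher, and those of surface ectoderm and muscle precursors lower. The counts of genes with a region in the 2 lists were 5 and 4 of 6 for surface ectoderm, 3 and 1 of 5 for endothelium and 2 and 2 of 4 for blood. They were 3 and 1 of 3 for muscle precursors, 3 and 1 of 4 for nerve and glia, and 2 and 0 of 4 for heart, where Hand2 is also active. With 3 to 10 genes a set, several counts lie near the shares of all coding genes. The part of other cell types in the values of the members was not tested.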

How the data were processed

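ATAC-seq was done on limb cells fixed with paraformaldehyde, per the labels' protocols. The submitters' processing notes name cutadapt, Bowtie2, SAMtools, deepTools and Genrich without versions or roles, and the build mm10. How replicates were combined, filters and any Tn5 shift are not given in the sources used here. Each deposited list gives a signal value, a −log10 p-value, a summit position and a score per peak. The authors' score is the signal per bp, times 1000 and capped at 1000, in 100% of peaks, and was not used. The deposited q-value column holds -1 throughout. Depth is unknown.

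Regions on chromosomes 1 to 19, X and Y were kept, with overlap of at least 1 bp called shared. Start sites are outer gene ends of RefSeq GRCm38.p6, with strand from the RefSeq promoter table for 17492 genes and by symbol from GENCODE M1 for 4044 of 21536. All 3 members matched the promoter table. Scripts ran in Python 3.11.15 with pandas 2.3.3 and scipy 1.17.1, and overlap and window counts were tested on simulated data. The members and lists were chosen with earlier results of these data known. The text names all members, the 5 strongest distal regions per member and list, the strongest one without overlap, the listed genes with a promoter region in 1 list only or none, and the 3 genes of nearest pattern, of which 1 is not reported here. Other genes were named after their values were seen. Positions within exons or introns are not analysed here.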

Additional observations from a re-analysis of the deposited data

How the results depend on the processing

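No paired analysis was possible because the replicates of a stage share a single peak list, and leaving out a replicate could not be run either. With −log10 p of at least 5, the windows held 74 E10.5 regions (16 shared) and 17 E11.5 regions (17 shared), by construction fewer. With the E10.5 list reduced to the length of the E11.5 list, 52 E10.5 regions remained by signal and 43 by −log10 p, and Twist2 had 9 of 28 and 9 of 23 shared. Against these shorter lists, 36 and 33 of the 40 E11.5 regions overlapped, so 40 of 40 depends on the longer E10.5 list. The whole lists' shares at this p-value limit and at the reduced length are not given here. These counts are therefore not read as high or low. A reciprocal overlap of 50% left 15 shared regions in each list, again without the whole lists' share beside it. Windows of 100 kb held 65 (20 shared) and 25 (25 shared), and windows of 500 kb 202 (55 shared) and 68 (66 shared). All 3 members kept a promoter region in both lists under each setting run.

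Ranked by signal per bp, the promoter percentiles of Hand2, Twist1 and Twist2 were 82.7, 93.3 and 95.3 at E10.5 and 60.4, 83.0 and 50.3 at E11.5. Ranked by −log10 p they were 89.4, 93.4 and 92.8, and 82.1, 79.4 and 63.7. By number of regions in 100 kb windows, Hand2 stood at percentile 94.0 at E10.5 and 92.9 at E11.5, Twist1 at 61.2 and 53.2, and Twist2 at 61.7 at E11.5. In 500 kb windows these were 64.1 and 76.0 for Hand2, 31.2 and 32.0 for Twist1, and 89.5 and 46.3 for Twist2. Twist1, and Twist2 at E11.5, thus changed side of the median with the window, and the cause was not tested. Counting every listed start site, and leaving out promoters of other coding genes, were chosen after seeing the data. The unknown depth limits every number of regions.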
